A study of Mus musculus with 21 samples.

Results

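Germinal centre B cells of the light zone that were replicating their DNA were compared with light zone cells in G1. The cells came from draining lymph nodes of 6 mice that each received 100 µg of NP-KLH, a hapten on a carrier protein, subcutaneously with an adjuvant, 2 mice each at days 10, 16 and 22 of the first response. Every mouse also received 5 mg of tamoxifen at least 6 days after immunisation, which switched on eYFP through Cre-ERT2, so all groups carry the reporter and the drug. Strain, age and the promoter driving Cre-ERT2 are not given in the sources used here. Cells were tagged per mouse with barcoded CD45 antibodies, and live IgD-negative eYFP+ cells were sorted, pooled and loaded as a non-plasma cell (non-PC) and a plasma cell fraction for 5′ droplet sequencing. Members were the non-PC cells that the deposited cell table annotates as LZ and calls S or G1: 2699 of 6619 cells in the series, 1008 in S and 1691 in G1. Each mouse gave both groups from the same pooled libraries, and the unique molecular identifier (UMI) counts of each mouse and phase were summed, so that n is 6 mice throughout. A sum held 98 to 356 cells and 923949 to 2701331 UMIs.

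In the light zone, B cells display antigen on MHC class II to T follicular helper cells and receive CD40 ligand and cytokines in return. Cells that obtain this help are known to induce the transcription factor Myc, which drives cell growth and D-type cyclins, and to begin a new cycle before most of them return to the dark zone to divide and mutate their receptor genes. G1 is the growth phase before DNA replication, S is replication, and G2M covers the gap after it and mitosis. Growth into S needs nucleotides, 1-carbon units from serine, lipids, ribosomes and chaperones, and it is held back by brakes such as p27, the BTG proteins and FOXO factors.

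The phase calls rest on transcripts, so replication and mitosis genes cannot be findings here. Of these, 43 of 45 S phase score genes tested, 47 of 52 G2 and M score genes and 95 of 100 further replication and mitosis genes were higher in S. Since calls of this kind read such genes, this is no independent check of them. Phases recomputed here, also from transcripts, matched the deposited ones in 79.0% of G1 and 95.2% of S cells. The score, replication, mitosis and histone genes were kept out of every list described below. The zone label was read against fixed markers as CPM, the count scaled to a fixed total of UMIs per sum. The light zone marker Cd83 averaged 654 CPM in light zone and 164 in dark zone G1 cells, and Cd86 159 and 94.2. The dark zone marker Cxcr4 averaged 12.7 CPM in light zone and 31.1 in dark zone G1 cells, and the B lineage gene Cd79a 3546 and 3474. In S the order held, with Cd83 at 416 CPM in light zone and 126 in dark zone cells. Whether the zone annotation read these markers is not given in the sources used here, so they are no independent check of it. The T cell genes Cd3e and Cd3g were at 0 in both phases. The summed T cell list, 14 genes led by Lck, lay at 117 to 179 CPM in G1 and 110 to 160 in S. The summed myeloid list, 10 genes led by Cst3, lay at 237 to 378 CPM in G1 and 210 to 476 in S, and all 6 NK cell genes together at 0 to 0.397. The deposited clusters follow the phases closely: cluster 0 held 92.8% of G1 cells, while cluster 2 held 56.5% and cluster 1 27.4% of S cells.

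Light zone cells were mostly outside mitosis. S cells made up 35.5% and 33.9% of light zone cells in the mice of day 10, 29.9% and 34.6% at day 16, and 30.3% and 30.9% at day 22. G1 cells made up 53.9% ± 5.43 (SD, n = 6) and G2M cells 13.6% ± 3.44. In the dark zone of the same mice, S was 26.2% ± 1.85, G1 37.2% ± 4.64 and G2M 36.7% ± 3.80. The S share was higher in the light zone in 6 of 6 mice, by 6.34 percentage points ± 2.19 (2-sided exact permutation test over mice, p = 0.03125, the smallest that 6 mice allow, and 0.03125 after adjustment over 3 shares). The direction turned when G2M cells were left out: S cells then made 37.7% of light zone G1 and S cells, a light minus dark zone difference of −3.76 points (exact p = 0.0625).

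More UMIs were counted per S cell than per G1 cell. A light zone G1 cell had on average 6366 UMIs in the lowest, 6908 in the median and 7418 in the highest mouse, and an S cell 9534, 10699.5 and 11446. No S value fell in the G1 range. The difference was 3648 UMIs ± 410.0 (SD, n = 6), higher in 6 of 6 mice (exact p = 0.03125, the smallest possible), and median genes detected rose from 2073 to 2739 per cell. The ratio of S to G1 was 1.53 ± 0.0435 in the light zone and 1.70 ± 0.119 in the dark zone, lower in the light zone in 6 of 6 mice (exact p = 0.03125). With medians per cell in place of means that difference was −0.118 (exact p = 0.0625).

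**Figure D1:**
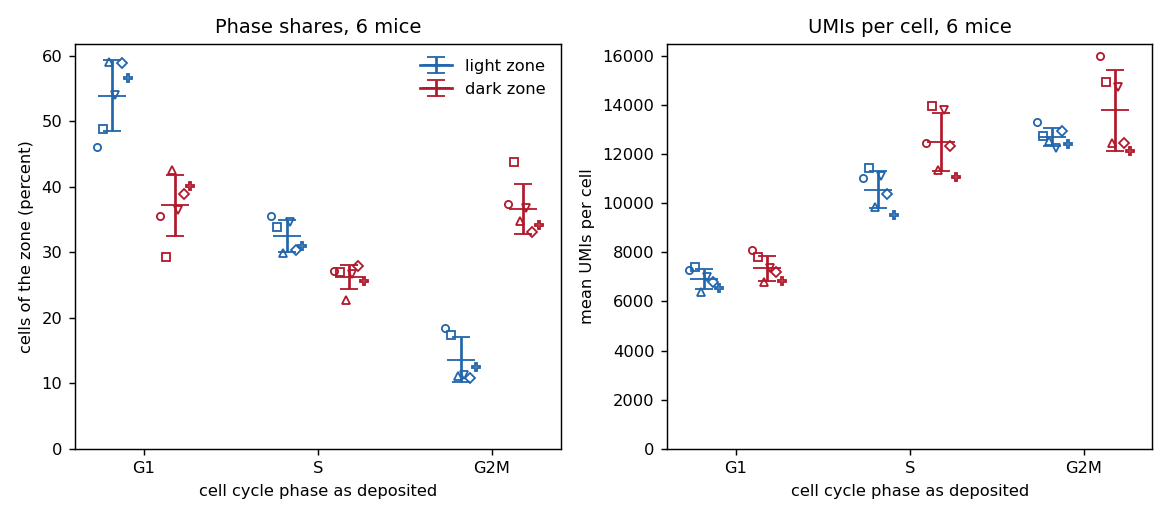
The left plot gives the percentage of light zone (blue) and dark zone (red) cells in each deposited phase, the right plot the mean UMIs per cell, with 1 symbol per mouse, the mean as a line and the SD as a bar. The 6 light zone S shares lie between 29.9% and 35.5%, and S cells have 9534 to 11446 UMIs against 6366 to 7418 in G1.

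The higher UMI count of S cells sets how every level must be read. Differences are given as log2 of the share of UMIs, S minus G1, with standard error, from edgeR's quasi-likelihood test with Benjamini-Hochberg adjustment, and a gene is called where the adjusted p is under 0.05. On this scale 1686 of 8051 genes were higher in S (20.9%) and 1564 lower (19.4%), with a median over all genes of −0.034. Outside the cycle lists and histones, 18.8% of 7808 genes were higher and 20.0% lower. Scaled to UMIs per cell, the median of all genes shifted by 0.61, to 0.58, and 6294 genes were higher (78.2%) and 38 lower (0.472%). A gene with a share difference of −0.61 therefore has equal UMIs per cell in both phases. "Lower in S" below means a lower share of the cell's UMIs unless per cell is written. No gene of the metabolic, transfer RNA, ribosome, translation, proteasome, chaperone or PI3K lists was called lower per cell, and for the other lists the counts per cell are given beside those by share. Counts of a list are read against the shares over all genes, so a list with close to 20.9% of its genes higher or 19.4% lower, as transport below with 4 of 16 higher, is no result about that list. Counts per cell are read against 78.2% higher and 0.472% lower. A list with 78.2% or less of its genes higher per cell has not risen beyond the shift of all genes.

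**Figure D2:**
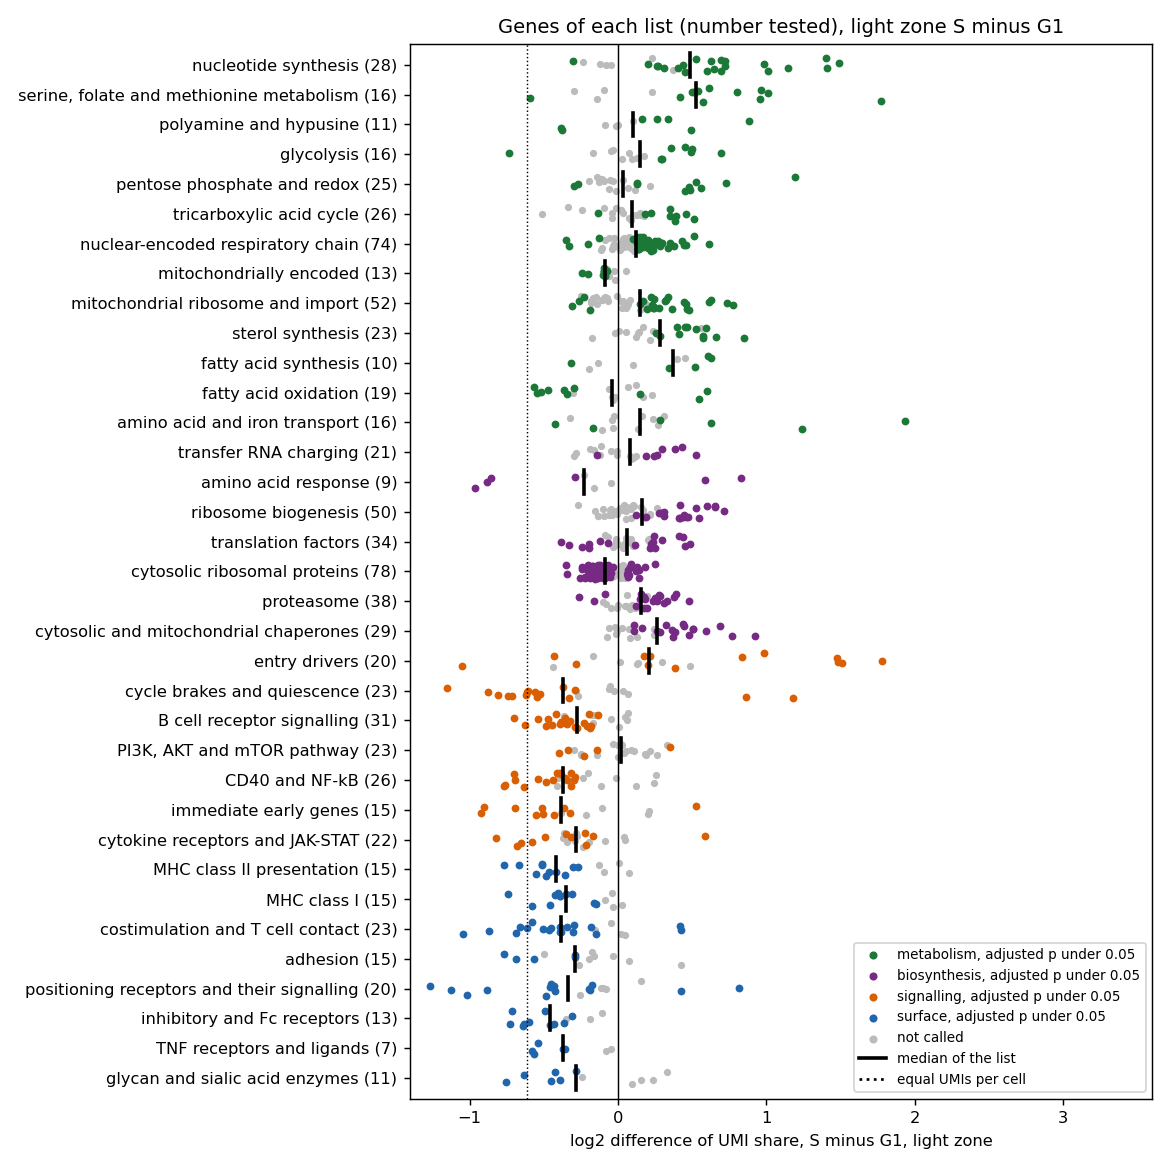
Each point is 1 gene of a list, placed by its log2 difference of UMI share, S minus G1 in light zone cells, coloured where the adjusted p is under 0.05 and grey where it is not; black bars are list medians, and the dotted line marks equal UMIs per cell. Nucleotide and serine genes lie to the right, with medians of 0.49 and 0.53, and presentation, CD40 and costimulation genes to the left, with medians from −0.42 to −0.37.

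Among the metabolic lists, those that feed DNA synthesis had the highest medians. Of 28 nucleotide synthesis genes tested, 21 were higher and 1 lower (median 0.49), and of 16 serine, folate and methionine genes 11 were higher and 1 lower (median 0.53). Paics, an enzyme of purine synthesis, stood at 122, 134 and 155 CPM in G1 (lowest, median and highest mouse) and 251, 273 and 284 in S. All S values lay above all G1 values, and the difference was 1.01 ± 0.057 (adjusted p = 1.57e-10). Dtymk, the kinase of thymidine monophosphate, rose by 1.14 ± 0.052, Dctpp1, which removes excess dCTP, by 1.40 ± 0.080, and the purine salvage enzyme gene Hprt by 0.72 ± 0.046. These enzymes act next to replication, and whether the phase call read any of them is not given in the sources used here.

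The mitochondrial folate enzyme gene Mthfd2 stood at 53.98, 64.00 and 72.9 CPM in G1 and 117, 128 and 144 in S. The groups did not overlap (difference 1.01 ± 0.060, adjusted p = 3.03e-10). Phgdh and Psat1, which make serine from a glycolytic intermediate, rose by 0.57 ± 0.050 and 0.80 ± 0.078, and the cytosolic Shmt1, which passes serine's carbon to folate, by 1.77 ± 0.15. Slc29a1, a nucleoside transporter, had 12.4, 12.99 and 14.6 CPM in G1 and 38.7, 50.3 and 59.1 in S. Every mouse rose, by 1.93 ± 0.12 over all (adjusted p = 3.46e-10), the farthest of the 16 transport genes, of which 4 were higher and 2 lower. Among the others, the transferrin receptor gene Tfrc differed by 0.62 ± 0.15 (adjusted p = 0.00237; 0.112 with DESeq2), and the ferritin genes Ftl1 (−0.42 ± 0.039) and Fth1 (−0.17 ± 0.022) were lower. The large amino acid transporter pair, Slc7a5 and Slc3a2, differed by 0.31 ± 0.25 (adjusted p = 0.349) and −0.031 ± 0.085 (0.811), neither called by share. The second changed sign without day 10 mouse 1 (0.026). Per cell both were called higher (0.93 ± 0.26, adjusted p = 0.0032, and 0.59 ± 0.084, 5.2e-06).

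The promoters of these genes were read for 4 short motifs, and 3 promoters of genes higher in S are shown, chosen after the search, because each holds 1 motif more than once. Each window is the 250 bases before the RefSeq transcript start (assembly GRCm38.p6), printed 5′ to 3′ along the gene's strand, with capitals for CACGTG (the E-box), CCAAT or its reverse complement ATTGG, and GGCGGGAA (an E2F-type site) or its reverse complement. Motifs were sought on both strands and do not overlap in the windows shown.
Mthfd2, chr6:83317605-83317854, minus strand: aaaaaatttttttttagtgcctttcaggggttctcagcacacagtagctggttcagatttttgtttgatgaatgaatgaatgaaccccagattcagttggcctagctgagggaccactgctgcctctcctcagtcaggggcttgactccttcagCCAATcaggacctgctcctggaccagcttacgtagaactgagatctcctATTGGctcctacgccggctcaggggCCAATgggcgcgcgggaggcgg
Phgdh, chr3:98339970-98340219, minus strand: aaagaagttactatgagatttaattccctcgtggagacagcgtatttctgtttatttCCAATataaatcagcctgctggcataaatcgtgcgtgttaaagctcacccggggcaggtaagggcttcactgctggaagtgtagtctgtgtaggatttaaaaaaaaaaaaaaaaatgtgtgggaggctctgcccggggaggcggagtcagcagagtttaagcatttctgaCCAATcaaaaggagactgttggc
Cdk4, chr10:127063285-127063534, plus strand: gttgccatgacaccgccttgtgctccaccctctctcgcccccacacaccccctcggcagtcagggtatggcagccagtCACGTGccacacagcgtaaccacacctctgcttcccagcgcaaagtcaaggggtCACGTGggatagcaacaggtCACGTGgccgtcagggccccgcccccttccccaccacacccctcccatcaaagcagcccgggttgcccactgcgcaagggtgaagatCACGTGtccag
The Mthfd2 window holds CCAAT or ATTGG 3 times, the nearest beginning 22 bases before the start, and Phgdh 2 times, the nearest 23 bases before it. The Cdk4 window holds CACGTG 4 times, the nearest 11 bases before the start. RefSeq windows were matched for 6464 of the 8051 genes tested (80.3%). CCAAT or ATTGG occurred in 12 of the 16 serine, folate and methionine windows (75.0%), in 63.1% of cycle list windows, and in 38.1% of all windows of genes tested. CACGTG occurred in 5 of 25 matched nucleotide synthesis windows (20.0%), in 0 of 16 serine windows and in 9.16% of all. Outside the cycle lists and histones, GGCGGGAA was in 7.46% of windows of genes higher in S, 1.78% of genes lower and 3.93% of all genes tested. In cycle list windows it was in 4.375% (7 of 160). An NF-kB consensus site, sought on both strands, was in 1 of 1206 windows of genes higher in S (0.0829%). It was in 6 of 1235 windows of genes lower (0.486%) and 13 of all 6464 (0.201%), too few to compare. The 22 matched windows of the CD40 and NF-kB list held 0. A match describes these letters only and is no measure of binding.

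Energy metabolism moved less and not as 1 block. Glycolysis genes were higher in 7 of 16 and lower in 1 (median 0.15). Lactate dehydrogenase, Ldha, had 585, 644 and 728 CPM in G1 and 851, 899.8 and 988 in S, without overlap (0.49 ± 0.034, adjusted p = 2.87e-09), and Tpi1, Pkm and Gapdh rose by 0.69 ± 0.043, 0.45 ± 0.033 and 0.36 ± 0.027. The glucose transporter gene Slc2a1 differed by 0.13 and Hk2 by 0.18, neither called. The regulator Pfkfb3 was the 1 lower gene (−0.74), and no glycolysis gene was called lower without day 10 mouse 1, either mouse of day 16 or day 22 mouse 2, nor with DESeq2 or in thinned cells. Of 25 pentose phosphate and redox genes 9 were higher and 2 lower (median 0.035, but −0.022 when each cell was thinned to 4837 UMIs), led by the peroxidase genes Prdx4 (1.20 ± 0.072) and Gpx4 (0.73 ± 0.045) and the thioredoxin gene Txn1 (0.56 ± 0.034).

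Nuclear genes of the respiratory chain were higher in 35 and lower in 4 of 74 (median 0.12; 22 higher in thinned cells), and tricarboxylic acid cycle genes in 8 and 1 of 26, Fh1 among the former (0.39 ± 0.048). The ATP synthase gene Atp5g3 rose by 0.38 ± 0.026 and the complex III gene Uqcrh fell (−0.35 ± 0.029). The 13 genes encoded in mitochondrial DNA went the other way in share: 0 were higher and 7 lower (median −0.086), although all 13 were higher per cell. In thinned cells 3 were called lower. Of these, mt-Co1 had 3594, 3675 and 4062 CPM in G1 and 3044, 3097 and 3503 in S. The groups did not overlap (−0.24 ± 0.018; per cell 0.38 ± 0.024). Mitochondrial ribosome and import genes were higher in 22 of 52 and lower in 4 (51 higher per cell), with Mrpl18 at 0.77 ± 0.047.

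Sterol synthesis was higher in 12 of 23 genes and lower in 0 (median 0.29), 4 higher with DESeq2. Cyp51, an enzyme of the pathway, rose by 0.53 ± 0.079, and the cholesterol carrier gene Stard4 by 0.85 ± 0.12, while the cholesterol exporter gene Abcg1 fell (−1.32 ± 0.17). Fatty acid oxidation had 3 genes higher and 7 lower of 19 (median −0.040). Without day 16 mouse 2, 3 were called lower, with DESeq2 1, and per cell 0, with 13 higher. The carnitine shuttle genes Cpt1a (−0.57), Cpt2 (−0.55) and Slc25a20 (−0.47) were among the lower and the electron carrier gene Etfa (0.55 ± 0.053) among the higher. Polyamine genes were higher in 5 and lower in 2 of 11 (10 higher per cell), with spermidine synthase, Srm, at 0.88 ± 0.089 and the polyamine-degrading Sat1 at −0.38 ± 0.049.

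Chaperones were mostly higher in S, the lists of protein synthesis were higher in part, and most ribosomal protein genes took a smaller share. Ribosome biogenesis genes were higher in 19 of 50 and lower in 0 (median 0.16), the nucleolar genes Nop56 and Npm1 by 0.71 ± 0.067 and 0.42 ± 0.031. Chaperones were higher in 18 of 29 and lower in 0 (median 0.26). Hsp90aa1, the inducible HSP90, had 260.2, 263 and 322 CPM in G1 and 482, 517 and 559.6 in S. No mouse overlapped (0.92 ± 0.042, adjusted p = 9.23e-12), and Hspa8 and Ppia rose by 0.51 ± 0.026 and 0.48 ± 0.019. Proteasome genes were higher in 18 and lower in 3 of 38, among them Psmc4 (0.48 ± 0.047), but 8 were called higher with DESeq2 and 7 in thinned cells. Of 34 translation factors 11 were higher and 7 lower by share, the latter close to the 19.4% of all genes. All 34 were higher per cell, and Eif3f was at −0.33 ± 0.030 by share.

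Of 78 cytosolic ribosomal protein genes, 52 were lower in share and 13 higher (median −0.090), while all 78 were higher per cell (median 0.53). The 13 were 8 without day 16 mouse 1, 7 without the block for mouse and 2 in thinned cells. Fau (−0.35 ± 0.014), Rps27 (−0.34 ± 0.019) and Rpl37 (−0.26 ± 0.017) were among the lower. Many of these genes have near-identical processed copies in the genome, so their counts are uncertain. Charging of transfer RNA was higher in 7 and lower in 1 of 21, but in 3 without day 10 mouse 2, 4 without day 16 mouse 1 or day 22 mouse 1, and 2 with DESeq2. Among 9 genes of the amino acid response, 2 were higher and 4 lower by share, against 5 and 1 per cell. Ddit4 and Sesn1, both inhibitors of the growth kinase complex mTORC1, fell by share (−0.86 ± 0.10 and −0.88 ± 0.16), and Ddit4 also per cell (−0.24 ± 0.10).

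Drivers of cycle entry were higher in 10 and lower in 3 of 20 genes (median 0.21; 6 higher in thinned cells; per cell 17 higher and 1 lower). Cdk4, the kinase that D cyclins activate, had 176, 188 and 195 CPM in G1 and 341, 364 and 394 in S. The lowest S value lay above the highest G1 value (0.99 ± 0.044, adjusted p = 5.91e-12). Cyclin D3, Ccnd3, had 267, 292 and 331 CPM in G1 and 353, 381 and 409 in S, also without overlap (0.39 ± 0.044). Cdk2 and Skp2, which act at replication itself, rose by 1.51 ± 0.093 and 1.78 ± 0.20, Cdc25a by 1.48, Cdk6 by 0.84 and the Myc-induced factor Tfap4 by 1.48. Cdk2 and Skp2 are among the 10, so the count and median of this list rest in part on genes close to the phase call. No count without them was made.

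Myc itself did not pass the test by share. It had 20.2, 40.5 and 42.9 CPM in G1 and 25.97, 43.02 and 55.5 in S, the groups overlapped, and the difference was 0.13 ± 0.14 (adjusted p = 0.501). Per cell Myc was called higher (0.74 ± 0.14, adjusted p = 9.1e-05), with the median of all genes at 0.58. Cyclin D2, Ccnd2, was at 1.12, 10.2 and 13.95 CPM in G1 and 1.89, 7.32 and 9.96 in S, with overlap (−0.44 ± 0.23, adjusted p = 0.135). Mxd4, a partner of MAX that opposes MYC, had 40.2, 45.3 and 51.2 CPM in G1 and 18.7, 21.9 and 28.3 in S, without overlap. It fell in share (−1.05 ± 0.10) and per cell (−0.43 ± 0.11), and Max (−0.28) and Batf (−0.43) fell in share.

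Brakes on the cycle fell in share in 14 of 23 genes and rose in 2 (median −0.37). Per cell 12 were higher and 0 lower, against 78.2% and 0.472% of all genes. Btg1, which slows division, had 106, 120.0 and 142 CPM in G1 and 58.7, 70.1 and 103 in S, without overlap (−0.74 ± 0.068). Btg2 also fell without overlap (−0.61 ± 0.062), while for Foxp1, which fell too (−0.71 ± 0.062), the groups overlapped. Pdcd4 (−1.15), Klf2 (−0.88) and Tob1 (−0.81) were lower as well. Foxo1 differed by −0.29 ± 0.10 (adjusted p = 0.0287), a call lost without day 16 mouse 2 and without either mouse of day 22 (−0.25, −0.25 and −0.30), with DESeq2 (−0.29), and without the block for mouse (−0.28), among other settings. Cdkn1b, which encodes p27, was at 3.41, 5.06 and 11.5 CPM in G1 and 3.67, 6.18 and 9.10 in S. The groups overlapped (0.031 ± 0.25, adjusted p = 0.971), and its sign turned without day 16 mouse 2 (−0.087) or day 22 mouse 2 (−0.12). Per cell Cdkn1b was called higher (0.65 ± 0.25, adjusted p = 0.026). The 2 members higher by share, Rbl1 (0.87) and Lin9 (1.18), belong to the pocket protein complexes that control replication genes.

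**Figure D3:**
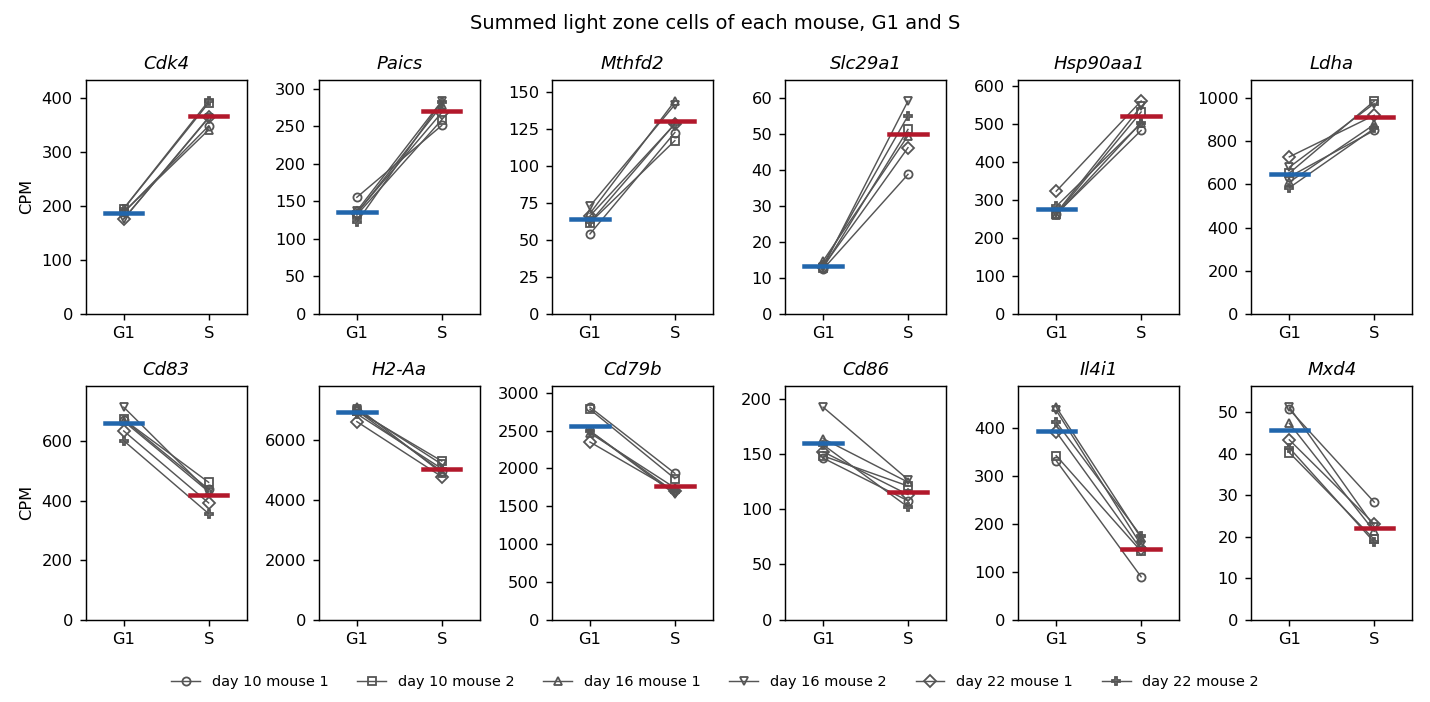
CPM of 12 genes in the summed light zone cells of each mouse, G1 and S joined by a line, with the mean of 6 mice as a bar (blue G1, red S). In the top row every mouse rises from G1 to S, and in the bottom row every mouse falls.

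Signalling genes through which light zone cells receive antigen and T cell help took a smaller share in S. B cell receptor signalling was lower in 21 of 31 genes and higher in 0 (median −0.28). Per cell 25 of 31 were higher, close to the 78.2% of all genes. Cd79b, a signalling chain of the receptor, had 2349.8, 2496 and 2811 CPM in G1 and 1658, 1721 and 1936 in S. The highest S value lay below the lowest G1 value (−0.54 ± 0.022, adjusted p = 1.4e-12; per cell 0.077 ± 0.027). Its partner Cd79a (−0.39 ± 0.023) and the kinases Blk (−0.63 ± 0.049) and Lyn (−0.34 ± 0.044) were also lower. Of 23 PI3K, AKT and mTOR genes 1 was higher and 4 lower by share, the latter close to the 19.4% of all genes. Their median was 0.022, but −0.078 without day 10 mouse 2, and 21 were higher per cell. The gene higher by share was Rheb, the activator of mTORC1 (0.35).

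CD40 and NF-kB genes were lower in 17 of 26 and higher in 0 (median −0.37), and per cell 15 were higher and 0 lower. Their receptor Cd40 fell by share (−0.39 ± 0.063), as did the feedback inhibitors Nfkbia (−0.38 ± 0.058) and Nfkbie (−0.76 ± 0.092) and Birc3 (−0.70 ± 0.10). With DESeq2 10 were called lower. Immediate early genes were lower by share in 9 of 15 and higher in 1, but per cell higher in 8 and lower in 0, among them Junb (−0.51 ± 0.064), Zfp36 (−0.55 ± 0.043), Egr2 (−0.93) and Cd69 (−0.69 ± 0.19); Dusp1 was the higher one (0.52). Cytokine receptors and JAK-STAT genes were lower by share in 10 of 22 and higher in 1, but per cell higher in 11 and lower in 0. The receptor genes for IL-4, Il4ra (−0.65 ± 0.091), and IL-21, Il21r (−0.35 ± 0.046), the shared chain Il2rg (−0.49 ± 0.051) and Stat6 (−0.68) were lower, while Pim1, a kinase that STATs induce, was higher (0.58).

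Most antigen presentation genes fell in share. MHC class II genes were lower in 11 of 15 and higher in 0 (median −0.42), with 11 higher and 1 lower per cell. H2-Aa had 6627, 6987 and 7110.4 CPM in G1 and 4786, 5009 and 5308 in S. The groups did not overlap (−0.46 ± 0.017, adjusted p = 6.36e-13; per cell 0.16 ± 0.024). Cd74, the invariant chain, was lower by share (−0.51 ± 0.013). H2-Oa, a chain of H2-O, which restrains peptide loading, had 431, 498 and 544 CPM in G1 and 268, 293 and 305 in S and fell both by share (−0.77 ± 0.046) and per cell (−0.15 ± 0.050). MHC class I genes were lower by share in 11 of 15 and higher in 0, with 12 higher and 0 lower per cell, including H2-K1 (−0.46 ± 0.033), whose reads can be shared with its near copies, and B2m (−0.31 ± 0.041).

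Genes of contact with T cells were lower in share too. Of 23 costimulation genes 17 were lower and 2 higher (median −0.39), against 16 higher and 0 lower per cell. Cd83 had 601, 669 and 714 CPM in G1 and 357, 431 and 462 in S, without overlap (−0.66 ± 0.036, adjusted p = 9.63e-11; per cell −0.043 ± 0.042, adjusted p = 0.352). Cd86, the ligand of CD28, had 146, 155 and 192 and 102, 117 and 127 CPM, again without overlap (−0.47 ± 0.058). Cd37 (−0.51 ± 0.029), Cd52 (−0.39 ± 0.023), Icosl (−0.69) and Pdcd1lg2, which encodes PD-L2 (−1.04), were lower, and Tnfsf9, which encodes 4-1BB ligand, was higher (0.41).

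Receptors that place the cell were lower in 13 of 20 genes and higher in 2 (median −0.34), 8 of them lower without the block for mouse, while per cell 12 were higher and 2 lower. Cxcr5, which draws cells to the follicle, fell by share (−0.42 ± 0.074). Gpr183 (EBI2) had 2.86, 8.92 and 23.4 CPM in G1 and 1.57, 4.56 and 7.58 in S, and S1pr4 16.7, 21.02 and 29.2 and 7.47, 11.1 and 12.9. The groups overlapped for Gpr183 and did not for S1pr4, and both genes fell by share (−1.27 ± 0.24 and −1.02 ± 0.14) and per cell (−0.65 ± 0.24 and −0.40 ± 0.15). Ccr6 differed by −1.13 ± 0.24, a call lost without the block for mouse (−1.04, adjusted p = 0.173). Cxcr4, the receptor of the dark zone, had 9.44, 12.2 and 16.2 CPM in G1 and 11.7, 12.97 and 20.4 in S. It was not called by share (0.16 ± 0.17, adjusted p = 0.498) and was called higher per cell (0.77 ± 0.17, adjusted p = 0.00067). The β-arrestin gene Arrb2 was higher (0.82 ± 0.11), as was Rgs10 (0.43), while Rgs14 (−0.89) and Arhgap17 (−0.46 ± 0.063) were lower.

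Inhibitory and Fc receptors were lower in 10 of 13 and higher in 0 (median −0.46), with 4 higher and 0 lower per cell. They included the IgM receptor Fcmr (−0.60 ± 0.042), CD23, Fcer2a (−0.72 ± 0.052), Siglecg (−0.64 ± 0.058) and Cd72 (−0.72 ± 0.10), the last not called without the block for mouse (−0.67, adjusted p = 0.117). Fcmr and Fcer2a are also markers of naive B cells; the summed naive list, 8 genes led by Fcmr, lay at 773 to 1182 CPM in G1 and 529 to 911 in S. Of its 5 genes tested, 4 were lower by share and 0 higher (median −0.72; 2 lower without the block for mouse), against 1 higher and 0 lower per cell. The sort took IgD-negative eYFP+ cells, and the part of naive cells in these results was not tested. TNF family receptors and ligands were lower by share in 5 of 7 (per cell 3 higher and 0 lower), with lymphotoxin β, Ltb (−0.56 ± 0.042), and the BAFF receptor gene Tnfrsf13c (−0.37 ± 0.031); the death receptor gene Fas was not called (−0.078 ± 0.053, adjusted p = 0.254). Adhesion genes were lower in 5 of 15 and glycan enzymes in 6 of 11, none higher in either, and with DESeq2 1 was called in each; per cell 9 and 7 were higher and 0 lower.

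Genes of germinal centre identity were read next. Light zone markers were lower by share in 17 of 19 (median −0.39; per cell 13 higher and 1 lower) and dark zone markers in 6 of 16, with 2 higher (median −0.13; per cell 16 higher). Bcl6, the master repressor of the state, differed by −0.22 ± 0.071 (adjusted p = 0.021), a call lost without day 10 mouse 2 (−0.21) or day 22 mouse 1 (−0.20), without the block for mouse (−0.22) and with DESeq2 (−0.22), among other settings. Of 30 germinal centre and B lineage factors 15 were lower and 2 higher (6 lower with DESeq2; per cell 26 higher and 0 lower), and the coactivator gene Pou2af1 rose (0.30 ± 0.042). The deposited light zone and dark zone scores were both lower in S in 6 of 6 mice: the median light zone score was 0.0777 in G1 and 0.0456 in S, and the dark zone score −0.0219 and −0.0282. A deposited continuous score named for both zones rose from 0.395 to 0.416 in 6 of 6 mice. On that scale dark zone G1 cells stood higher, at 0.580. The deposited activation score rose from 0.280 to 0.383 and the memory score fell from 0.638 to 0.541, again in 6 of 6 mice. All 5 had exact p = 0.03125, adjusted p = 0.0375 over 6 scores, while the plasma cell score did not pass (0.140 and 0.137, exact p = 0.125).

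Few genes had fewer UMIs per cell in S. Of the 38, 8 were immunoglobulin genes, which follow the clones of each mouse, and 30 were others. Il4i1, an amino acid oxidase induced by IL-4, had 332, 402 and 443 CPM in G1 and 89.6, 151 and 175 in S, without overlap (−1.41 ± 0.061, adjusted p = 4.36e-12). Per cell it averaged 2.68 UMIs in G1 and 1.53 in S, lower in 6 of 6 mice (−0.80 ± 0.062). Tcp11l2 averaged 0.163 UMIs in G1 and 0.0578 in S per cell (−1.47 ± 0.19), the epoxide hydrolase gene Ephx1 0.328 UMIs in G1 and 0.164 in S (−0.97 ± 0.15) and the repressor gene Hbp1 0.141 UMIs in G1 and 0.0831 in S (−0.78 ± 0.21). Abcg1 (−0.71 ± 0.17), the ubiquitin ligase gene Neurl3 (−0.52 ± 0.12) and the cytokine gene Clcf1 (−0.42 ± 0.14) were lower per cell as well. The 5 largest rises by share among the genes named by size were those of Kntc1 (3.47 ± 0.21), BC030867 (3.41 ± 0.26), Aunip (3.32 ± 0.16), Lrr1 (3.16 ± 0.21) and Pbk (3.07 ± 0.15). Kntc1, Aunip and Pbk act in mitosis and DNA repair and so lie close to the phase call. The cycle lists do not hold every gene of this kind, so none of the 5 rises is read as separate from the call.

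Cells further along the cycle were then compared with S. The G2M sums, 44 to 121 cells each, were set against the same S sums, so this comparison shares samples with the first, and values are given side by side without a test across them. Of 6906 genes, 690 were higher in G2M than in S (9.99%) and 797 lower (11.5%). These are shares of UMIs, and light zone G2M cells averaged 12691 UMIs ± 379 against 10554 ± 760 in S (SD, n = 6). No scaling to UMIs per cell was run for this step, so a lower share need not mean fewer UMIs per cell. Growth genes that were higher in S divided in G2M. Some were lower again: Cdk4 was 0.99 ± 0.044 from G1 to S and −0.58 from S to G2M, Paics 1.01 ± 0.057 and −0.82, Ccnd3 0.39 ± 0.044 and −0.52, and Nop56 0.71 ± 0.067 and −0.39. Others were higher still, as Ppia (0.14 from S to G2M), Hsp90aa1 (0.20) and Txn1 (0.13), or not called, as Psat1 (0.20), Hprt (0.043) and Phgdh (−0.00017). By list, 19 of 49 ribosome biogenesis genes were lower in G2M and 1 higher, 10 of 26 nucleotide genes lower and 0 higher, 5 of 14 serine, folate and methionine genes lower and 0 higher, 8 of 15 glycolysis genes lower and 0 higher, and 5 of 29 chaperones lower and 3 higher. The chaperone counts lie near the 9.99% higher and 11.5% lower of all genes and are no result about that list. Ribosomal proteins were lower by share in 59 of 78. Surface genes divided. Cd83 (−0.66 ± 0.036, then −0.27), Cd52 (−0.39 ± 0.023, then −0.43) and Ltb (−0.56 ± 0.042, then −0.60) were lower by share at both steps. Nfkbia (−0.38 ± 0.058, then 0.43) and H2-K1 (−0.46 ± 0.033, then 0.39) were lower in S than in either neighbour, and H2-Aa was not called at the second step (0.062). Cxcr4, not called from G1 to S, was higher in G2M than in S (0.68, adjusted p = 0.014). Of 24 CD40 and NF-kB genes, 7 were higher and 1 lower in G2M.

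**Figure D4:**
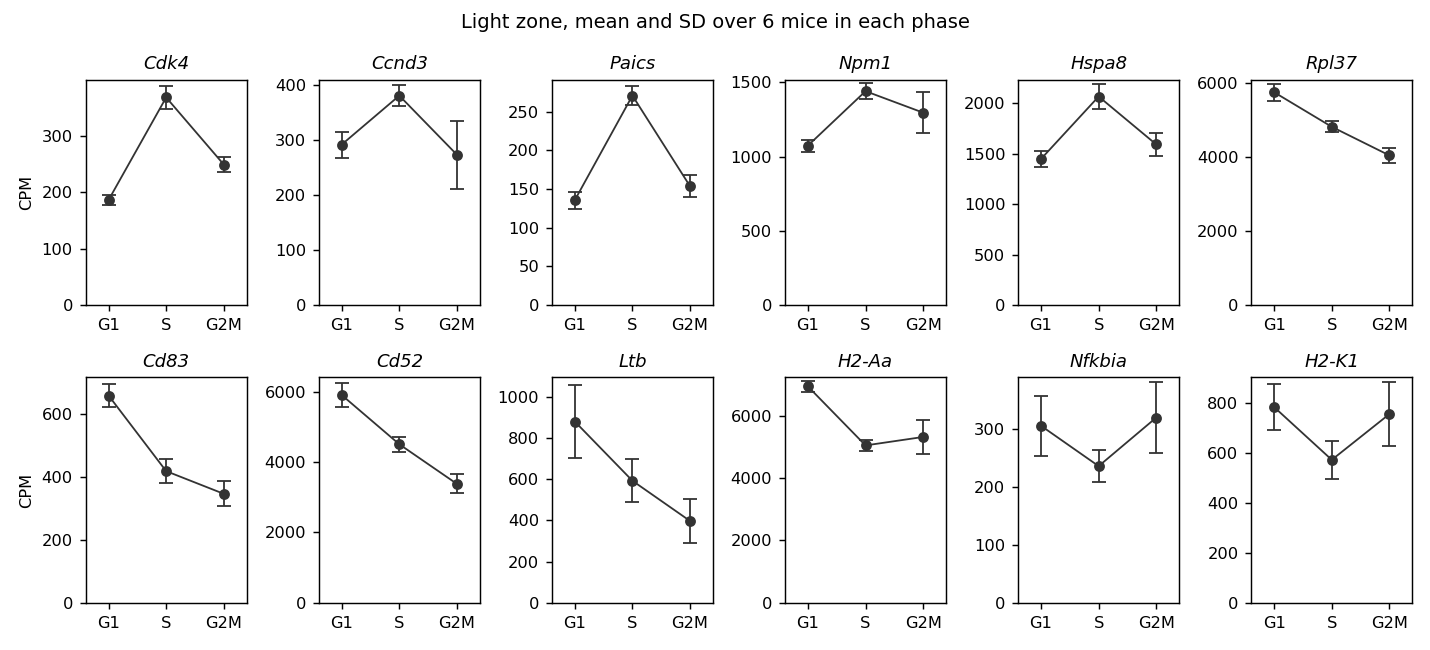
Mean CPM with SD over 6 mice of 12 genes in light zone G1, S and G2M cells, each axis from 0. Cdk4, Ccnd3, Paics and Hspa8 peak in S, Cd83, Cd52, Ltb and Rpl37 step down at both transitions, and Nfkbia and H2-K1 are lowest in S.

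Few genes were called as changing differently in the 2 zones on the way from G1 to S, and most of them belonged to 1 group. Testing the difference between zones (light zone change minus dark zone change), 9 of 7951 genes changed more upward in the light zone (0.113%) and 93 more downward (1.17%). Cytosolic ribosomal proteins made up 70 of the 93: the list median by share was −0.11 in the light zone and 0.080 in the dark zone, and the median difference −0.19 against −0.013 over all genes. Rps27 changed by −0.36 in the light and −0.18 in the dark zone (difference −0.18 ± 0.036, adjusted p = 0.0065), and Rpl37 by −0.27 and −0.10 (−0.17 ± 0.033, 0.00423). The list median difference lay between −0.19 and −0.15 in every setting run, but the number called fell to 45 without day 10 mouse 2 and 43 without day 16 mouse 2. Single calls depended on single mice too: Rps27 was lost without day 16 mouse 1 (−0.15) or day 22 mouse 2 (−0.16), and Rpl37 without day 16 mouse 1 (−0.15). Of the 13 mitochondrially encoded genes 4 differed downward, mt-Co1 by −0.14 ± 0.033, but none did without either mouse of day 16, without day 22 mouse 2, with DESeq2 size factors or in thinned cells. Arhgap17 differed by −0.46 ± 0.11, a call lost without any of 5 of the 6 mice (−0.48 to −0.38). No gene of the nucleotide, serine, CD40, MHC or costimulation lists was called between zones. Their medians by share had the same sign in both zones (light, then dark): nucleotide 0.47 and 0.53, serine 0.51 and 0.60. CD40 and NF-kB had −0.38 and −0.33, MHC class II −0.43 and −0.38, MHC class I −0.36 and −0.29, and costimulation −0.40 and −0.37. B cell receptor signalling had −0.30 and −0.29. These list shifts were thus not particular to the light zone. The absence of calls does not show that single genes changed alike: Cd83 differed by −0.32 ± 0.11 and Mthfd2 by 0.25 ± 0.11.

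**Figure D5:**
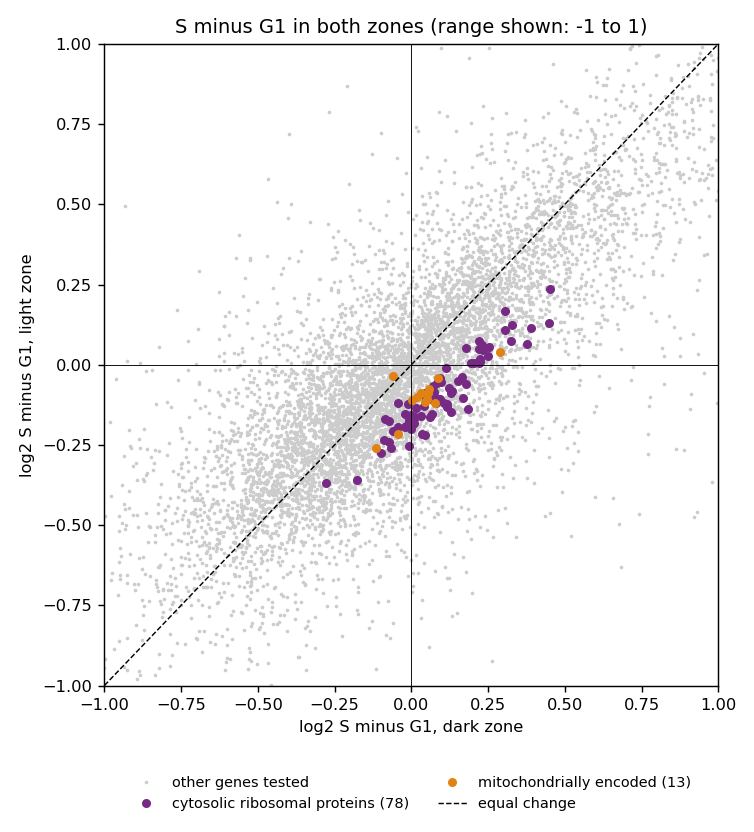
Log2 difference S minus G1 of each gene in the dark zone (horizontal) and the light zone (vertical), with ribosomal protein genes in purple, mitochondrially encoded genes in orange, and the line of equal change dashed; 622 of 7951 genes lie outside the range shown. The ribosomal protein genes lie below the line, with a list median of −0.19 for the light zone change minus the dark zone change.

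Few genes were called between days. With 2 mice per day, 20 of 8051 genes had a phase difference that varied between days (0.248%), 18 of them immunoglobulin genes. The other 2, named after their values were seen, were Bfsp2 and Lyz2. Lyz2, the myeloid lysozyme gene, had 24.7 and 1.64 CPM in G1 and 8.49 and 0.758 in S in the mice of day 10. It had 8.65 and 8.27 CPM in G1 and 129.5 and 91.1 in S at day 16, and 47.8 and 11.1 in G1 and 180.2 and 26.2 in S at day 22. It was higher in S in 4 of 6 mice (2.10 ± 0.35, adjusted p = 0.000112; 0.180 with DESeq2). The summed myeloid list given above overlapped between the phases; its part in Lyz2 was not tested. None of the metabolism, signalling or surface genes named above was called between days.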

How the data were processed

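The authors deposited 1 matrix of raw UMI counts (14493 genes by 6619 cells) and a cell table with mouse, day, phase, annotation, cluster and module scores. Per the submitters' processing notes, Cell Ranger and Seurat were used with mm10 (GRCm38); versions, the phase-calling method and doublet handling are not given in the sources used here, and no doublets were removed here. The matrix pools 8 non-PC and 8 plasma cell expression libraries; the mouse of a cell comes from the cell table. The deposited score columns were compared as medians per mouse. Matrix sums matched the deposited totals in 6619 cells, and 6 barcodes occurred in both fractions. Light zone S and G1 cells held 1335 to 36779 UMIs.

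Counts were summed per mouse, zone and phase, keeping sums of at least 10 cells, and tested with edgeR 4.0.16 (R 4.3.3; TMM, filterByExpr, quasi-likelihood F test, Benjamini-Hochberg over all genes tested, threshold 0.05), with mouse as a block because the 2 phases come from the same mouse. The standard error is the log2 difference divided by the root of F. CPM are scaled to TMM library sizes, except in the zone marker check and the summed lists of other cell types, which use total UMIs. The zone difference was an interaction contrast and the day difference an F test over 2 terms. Shares and UMIs per cell were tested by sign changes over 6 mice (exact, 2-sided, SciPy 1.17.1). Scripts were tested on simulated data. The members and gene lists were chosen with earlier results of these data known. Named genes were the 10 largest changes in each direction with at least 20 CPM in the higher phase and the same direction in all mice (without cycle, histone, immunoglobulin, mitochondrial and predicted genes), up to 4 genes of lowest p in each list, and a fixed set that includes Myc, Ccnd2, Cdkn1b and Cd83. A few genes are not reported here. Other list members are given as examples chosen after their values were seen. Mice were separate animals, but all passed through the same wells, so wells cannot differ between phases or mice. Alternatives were DESeq2 1.42.0 (size factors and test), no filter, no TMM, per cell scaling, thinning to 4837 UMIs per cell (243 G1 and 39 S cells were shallower and left out), no block, leaving out each mouse, leaving out gene classes, and recomputed phases (scanpy 1.11.5), the last added after seeing the data.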

Additional observations from a re-analysis of the deposited data

Results flagged for a closer look

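In 13 of 225 groups of 6 mice tested, 1 mouse stood apart from the others, with a gap to its neighbour that was large against the group's whole range (Dixon's test). Chance flags about 1 in 20 groups. Most were values of day 10 mouse 1, the mouse with the fewest cells: in G1, Myc at 20.2 CPM, Tfrc at 20.2 and Ltb at 1230.0, and in S, Btg2 at 90.6, Il4i1 at 89.6, Abcg1 at 17.0, Cyp51 at 53.8, mt-Co1 at 3503 and Rps27 at 3734. The others were Sesn1 in G1 of day 22 mouse 2 at 23.5 CPM, Hsp90aa1 in G1 of day 22 mouse 1 at 322, Cxcr4 in S of day 16 mouse 1 at 20.4 and Ccr6 in G1 of day 10 mouse 2 at 43.5.

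The change from G1 to S differed between light and dark zone by edgeR's interaction test for mt-Co1 (−0.14 on the log2 scale), Rps27 (−0.18), Rpl37 (−0.17) and Arhgap17 (−0.46). The ratio of UMIs per cell in S to G1 differed between the zones by −0.173, lower in the light zone in 6 of 6 mice (exact permutation test, p = 0.03125, the smallest possible). The change of Lyz2 differed between days, by 5.11 for day 16 minus day 10 and 3.19 for day 22 minus day 10 on the log2 scale, with 2 mice a day.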

How the results depend on the processing

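The share scale decides the direction of most genes lower in S. Scaled to UMIs per cell, 6294 genes were higher and 38 lower, and 40 named genes that were below 0 by share had a log2 difference above 0: Ccnd2 0.17, Foxo1 0.33, Btg2 0.010, Sat1 0.24, Uqcrh 0.27, mt-Co1 0.38, Scd1 0.30, Acads 0.10, Ftl1 0.19, Fth1 0.45, Slc3a2 0.59, Fau 0.26, Rps27 0.27, Rpl37 0.36, Eif3f 0.29, Cd79a 0.23, Cd79b 0.077, Lyn 0.28, Nfkbia 0.23, Cd40 0.23, Zfp36 0.064, Junb 0.11, Il2rg 0.13, Il21r 0.27, Cd74 0.11, H2-Aa 0.16, H2-K1 0.16, B2m 0.30, Cd86 0.15, Cd37 0.11, Cd52 0.23, Cxcr5 0.19, Arhgap17 0.16, Fcmr 0.016, Ltb 0.053, Tnfrsf13c 0.25, Fas 0.54, Bcl6 0.40, Mcl1 0.29 and Mzb1 0.22. By the construction of this scaling all values rise by about 0.61. Myc (0.74), Slc7a5 (0.93), Cdkn1b (0.65) and Cxcr4 (0.77), not called by share, were called higher per cell.

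Other settings moved counts more than directions. S minus G1 gave 1036 genes higher and 645 lower with DESeq2's test and 1131 and 1030 in thinned cells; without single mice it gave 1459 to 1661 and 1326 to 1469. No replicate block gave 1551 and 1311, of which 1541 and 1292 were shared with the blocked fit; among the named genes it lost the calls of Foxo1, Bcl6, Cd72 and Ccr6 and changed no other call. DESeq2 called fewer members of several lists: 13 mitochondrial ribosome, 12 ribosome biogenesis and 2 transfer RNA genes higher, and 9 brakes, 6 cytokine and 3 dark zone genes lower. G2M minus S gave 403 higher and 378 lower with DESeq2's test, 396 and 445 in thinned cells, and 580 to 641 and 580 to 738 without single mice. The zone difference gave 15 genes higher with DESeq2's test, 79 with no filter and 4 in thinned cells, and without single mice 5 to 14 higher and 55 to 79 lower, fewest lower without day 10 mouse 2 (56) and day 16 mouse 2 (55). The day difference gave 5 genes with DESeq2's test, 127 with no filter, 4 in thinned cells and 18 to 36 without single mice, most without day 10 mouse 1 (36) and day 10 mouse 2 (34). Without single mice Cdkn1b ranged from −0.12 (day 22 mouse 2 left out) through −0.087 (day 16 mouse 2) to 0.21, and Slc3a2 from −0.10 to 0.026 (day 10 mouse 1); the cause was not tested. Ccnd2 was called with recomputed phases (−0.61), which matched the deposited ones in 79.0% of G1 and 95.2% of S cells.

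The S share difference was −3.76 points among G1 and S cells. Without single mice it was 5.93 to 7.12 points, the UMI difference 3559 to 3783 and the UMI ratio difference −0.202 to −0.149; 5 mice cannot give an exact p below 0.0625. With medians the UMI ratio difference was −0.118. Cells near the phase boundary were not left out, since phase scores were not used here. A minimum of 30 cells per sum left every sum in. Genes with few UMIs per cell are limited by depth: Tcp11l2 averaged 0.163 UMIs in G1 and 0.0578 in S.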

Other observations

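Lists of later fates and of mutation were not described above. Memory B cell genes were lower in share in 7 of 10 tested and higher in 0 (median −0.87, and −0.25 per cell with 2 higher and 1 lower; 3 lower without the block for mouse and 3 with DESeq2). Of 13 plasma cell genes 5 were lower by share and 3 higher, the latter close to the 20.9% of all genes. Per cell 10 were higher and 0 lower. Mzb1, a chaperone of antibody assembly, was at −0.40 ± 0.030 by share. Mutation machinery was higher in 8 and lower in 3 of 20 (median 0.19; all 20 higher per cell), but higher in 5 without day 10 mouse 2 or day 16 mouse 2 and in 3 with DESeq2. Of 19 BCL2 family and death genes 2 were higher and 5 lower (3 lower without day 10 mouse 2; per cell 14 higher and 0 lower). Mcl1, a survival protein induced by T cell help, was lower by share (−0.32 ± 0.066; per cell 0.29 ± 0.068).

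Genes outside the naming rule also differed between zones and were picked after their values were seen. Eef1a1 (−0.22) and Eif5a (−0.32), translation factors, and the glycolytic gene Aldoa (−0.29) changed more downward in the light zone, and Hmgn2 (0.48), Stmn1 (0.44) and Vim (0.76) more upward.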
